A study of Mus musculus with 21 samples.

Results

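Cd81, Cd200 and Tg were described across all 21 single-cell RNA libraries of the series as 3 of the 17516 gene symbols measured. They were taken by name, as genes that were present on day 3 of culture and low afterwards, so their fall after day 3 is a description of how they were picked and is given with no test. CD81 is a tetraspanin, a small membrane protein with 4 membrane passes that organises other proteins into patches on the cell surface. It is best known as a receptor for hepatitis C virus, and on T cells it can act as a co-stimulator. CD200 is a surface glycoprotein of the immunoglobulin family whose receptor, CD200R1, passes inhibitory signals into myeloid cells and some T cells. Tg encodes thyroglobulin, the large secreted protein on which thyroid follicular cells build thyroid hormone, and it is not a gene that T cells are known for.

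All libraries held OT1 cells, mouse CD8 T cells that carry a transgenic T cell receptor for a peptide of ovalbumin. By this label all groups share 1 antigen specificity, which was not checked in single cells. Naive OT1 cells were taken on day 0, and all other groups were activated with beads coated with antibodies to CD3 and CD28. Activated cells grew without cytokine (days 3 and 5) or with IL-2, IL-2v (labelled as a mutant IL-2) or IL-15, each at 5 or 50 IU/mL (days 3, 5 and 10). That gave 1 library for each of 21 conditions and no replicates, so no p-value was computed, and error bounds cover counting error only. The treatment labels of the 6 libraries with IL-2 or IL-15 at 50 IU/mL name other interleukins than their titles do; the titles were followed. The labels' extraction protocol speaks of a sort from tumours, whereas their growth protocol describes this culture.

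Each library held 3250 to 7105 cells after filtering and 10589950 to 32648496 UMIs, which are tags that each mark 1 captured RNA molecule. Between 1 and 19 cell barcodes were shared by any pair of libraries, at most 0.340% of the smaller one. Levels are given as CPM, the UMIs of a gene scaled to the same total in each library, and 3 UMIs were worth 0.0919 to 0.283 CPM. The T cell markers Cd3d, Cd3e, Cd3g, Trac, Cd8a and Cd8b1 summed to 2238 to 5519 CPM in every library. Among the B cell markers, Pax5 was at 0 in all libraries and Ms4a1 reached 0.0541 CPM, while the list as a whole, with Ighm as its main part, ran from 30.1 to 756.6 CPM. The summed thyroid markers Tshr, Pax8 and Foxe1 stayed at or under 0.372 CPM. Myeloid and dendritic markers reached 4.54 CPM, erythroid markers 3.15 and NK cell markers 36.7, the last on day 10. Cd4 (4.39 CPM), follicular helper T cell markers (10.1) and endothelial and stromal markers (77.3) were highest in the naive library. Pecam1 was the 1 gene of the last list to reach 20 CPM in any library. The regulatory T cell markers Ikzf2 and Foxp3 ran from 4.99 to 184.0 CPM, and only Ikzf2 reached 20 CPM. In naive cells without a Cd200 UMI, Ikzf2 was seen in 14.4% and Foxp3 in 0.108%. The median sum of these 2 genes was 82.0 CPM on day 3 and 12.3 on day 10, and that of the B cell list 621.5 and 252.2.

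By GENCODE vM21 on build GRCm38, Cd81 lies on chr7:143052739-143067934 on the forward strand, with 8 exons in its longest consensus coding transcript. Cd200 lies on chr16:45382135-45409053 on the reverse strand, with 6 exons. Tg lies on chr15:66670753-66850721 on the forward strand, with 48 exons over 179969 bases. Sla, the gene of an adaptor that dampens T cell receptor signalling, lies wholly within Tg on the opposite strand (chr15:66780819-66831829), and the exons of Tg and Sla share no base. Cd81 shares 104 exonic bases with R74862 and Tg shares 112 with Gm17140, each on the opposite strand; whether the counting used strand is not given in the sources used here.

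RefSeq promoters (GRCm38.p6) were matched for 2 of the 3 genes, Cd81 and Cd200. The 250 bases before the start of each are printed because these genes moved together across days, with every match of GGGCGG, the GC box bound by Sp1-family factors, in capitals on either strand.

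Cd81, chr7:143052500-143052749, forward strand: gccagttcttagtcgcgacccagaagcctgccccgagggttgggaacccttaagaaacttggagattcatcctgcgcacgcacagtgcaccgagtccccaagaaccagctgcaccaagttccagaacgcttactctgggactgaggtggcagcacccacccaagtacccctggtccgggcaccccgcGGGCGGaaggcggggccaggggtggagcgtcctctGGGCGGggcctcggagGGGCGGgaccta

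Cd200, chr16:45409054-45409303, reverse strand: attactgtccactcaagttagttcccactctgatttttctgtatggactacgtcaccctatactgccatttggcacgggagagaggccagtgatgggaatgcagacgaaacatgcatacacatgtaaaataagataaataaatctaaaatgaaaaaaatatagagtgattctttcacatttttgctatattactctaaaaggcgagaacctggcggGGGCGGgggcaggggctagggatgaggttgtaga

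The window searched ran on for 50 bases past the start, 300 in all. It was 65.7% G or C with 23 CpG steps in Cd81 and 45% with 8 in Cd200, against medians of 53.0% and 7 over 32544 distinct promoters. Cd81 held 3 GC boxes and Cd200 held 1, and 35.9% of all promoters held at least 1. Cd81 also held TATAAA just past its start, as did 13.6% of promoters somewhere in the window. Neither window held the letters TGANTCA (AP-1, in 7.79% of promoters), TGACGTCA (CRE, 1.80%), GGAAA (NFAT core, 61.5%) or TTCNNNGAA (STAT, 8.33%), or a match of the NF-kB motif searched (0.415%), on either strand, where N is any base.

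Cd81 was low in naive cells, at its highest on day 3, and near 1 CPM on day 10. The naive library had 4.55 CPM (84 UMIs, exact Poisson 95% interval 3.63 to 5.63). On day 3, Cd81 stood at 38.3 CPM without cytokine, and at 5 and then 50 IU/mL IL-2 gave 45.3 and 70.6 CPM, IL-2v 38.8 and 28.5 and IL-15 32.5 and 35.8. All 7 day 3 libraries lay above the naive library with separate intervals. On day 5 the level was 5.02 CPM without cytokine, and in the same dose order the IL-2 libraries had 4.64 and 32.7, the IL-15 libraries 3.71 and 5.37, and the IL-2v libraries 7.71 and 16.7. Only the library with 50 IU/mL IL-2 (29.3 to 36.3 CPM) reached into the day 3 range, and 4 of the 7 day 5 libraries overlapped the naive interval. On day 10 IL-2 gave 0.537 and 1.91 CPM, IL-2v 0.214 (7 UMIs) and 1.03, and IL-15 2.19 and 0.879. All 6 day 10 libraries lay below the naive library with separate intervals. Of the 20 neighbouring pairs in the order of all libraries, 14 had overlapping intervals, and the library with 50 IU/mL IL-2 on day 3 was separate at the top.

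Cd200 followed the same order of days, with IL-15 libraries at the top on each day. Naive cells held 10.9 CPM (201 UMIs, 9.43 to 12.5). On day 3, Cd200 stood at 33.0 CPM without cytokine, and at 5 and then 50 IU/mL IL-2 gave 38.7 and 29.9 CPM, IL-2v 34.9 and 38.4 and IL-15 64.1 and 50.0. Both IL-15 libraries were the highest of the day, and their intervals, from 60.8 to 67.6 and from 47.1 to 53.1 CPM, did not meet those of the other 5. On day 5 it stood at 20.8 CPM without cytokine, the IL-2 libraries had 14.2 and 8.31, the IL-15 libraries 33.8 and 29.2, and the IL-2v libraries 8.63 and 10.2. Both IL-15 libraries were again at the top, and one of them was above the lowest day 3 library. On day 10 IL-2 gave 1.07 and 0.110 CPM, IL-2v 1.72 and 0.110, and IL-15 5.62 and 2.79. Both values of 0.110 CPM rest on 3 UMIs (0.0227 to 0.321 CPM), and the IL-15 library at 5 IU/mL was the highest. All 6 day 10 libraries lay below the naive level with separate intervals. Of the 201 naive UMIs, 42.3% lay in 30 cells, and the naive level was not recomputed without these cells. Over the whole order, 12 of 20 neighbouring pairs had overlapping intervals.

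Tg was above 5 CPM on day 3 alone among these 21 libraries. Naive cells held 6 Tg UMIs, 0.325 CPM (0.119 to 0.707). On day 3, Tg stood at 41.6 CPM without cytokine, and at 5 and then 50 IU/mL IL-2 gave 43.6 and 39.0 CPM, IL-2v 25.5 and 37.7 and IL-15 37.1 and 29.3. These 7 libraries spanned 1.71-fold, against 2.48-fold for Cd81 and 2.14-fold for Cd200. On day 5 it stood at 0.428 CPM without cytokine (11 UMIs), the IL-2 libraries had 1.95 and 4.82, the IL-15 libraries 1.61 and 2.32, and the IL-2v libraries 1.30 and 3.58. No day 5 library came near the day 3 range, and the library without cytokine overlapped the naive interval. On day 10 IL-2 gave 1.51 and 0.807 CPM, IL-2v 1.38 and 1.61, and IL-15 0.429 and 0.941. Days 5 and 10 overlapped; 3 of the 6 day 10 libraries lay above naive with separate intervals and none lay below. In the full order, 18 of 20 neighbouring pairs had overlapping intervals. Among neighbours of different days, the only separation ran between day 3 and the rest. Libraries further apart in the order could be separate, as 6 of the 7 day 5 libraries were from naive.

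**Figure D1:**
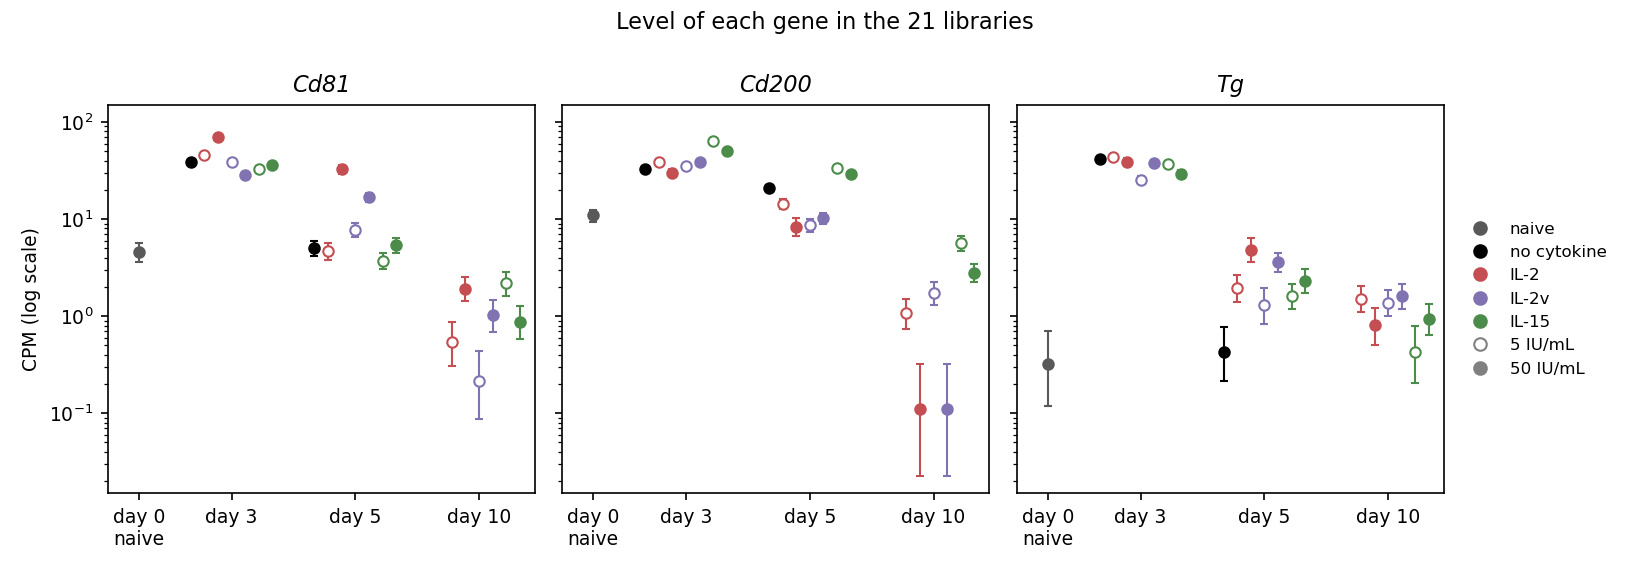
CPM of Cd81, Cd200 and Tg (log axis) in each of the 21 libraries by day; each point is 1 library with its exact Poisson 95% interval, colours are cytokines, and open points are 5 IU/mL. The 7 day 3 libraries of Tg sit between 25.5 and 43.6 CPM, all above every other library, while 1 day 5 library of Cd81 and 1 of Cd200 lie within the range of day 3.

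The step from day 3 to day 5 was taken in 6 pairs of equal cytokine and dose, as differences of log2(CPM + 1), on which changes of low genes come out too small. The median difference of Tg was −3.36 (lower in 6 of 6 pairs, range −3.92 to −2.78), that of Cd81 −2.36 (6 of 6, −3.04 to −0.74) and that of Cd200 −1.56 (6 of 6, −1.90 to −0.76). A gene was called where all pairs had the same sign and the median was at least 1 in size, among genes that averaged 20 CPM or more in either arm. All 3 genes were called lower, as were 2.22% of the 5912 genes tested (0.829% were called higher), but the genes were picked on this step and nothing is read from it. As unlogged ratios, Cd81 was 9.76-fold lower with 5 IU/mL IL-2 (7.87 to 12.2) and 1.71-fold lower with 50 IU/mL IL-2v (1.5 to 1.94). For Tg the ratio ran from 8.09-fold (6.08 to 11) with 50 IU/mL IL-2 to 23.1-fold (17.3 to 31.6) with 5 IU/mL IL-15. Cd200 was lower by 4.05-fold (3.41 to 4.84) with 5 IU/mL IL-2v and by 1.71-fold (1.55 to 1.89) with 50 IU/mL IL-15. Without cytokine, the single pair gave 97.0-fold for Tg (54.0 to 195), 7.62-fold for Cd81 (6.33 to 9.24) and 1.59-fold for Cd200 (1.42 to 1.78); 9.47% of 5785 genes were lower by 1 log2 unit or more there, Tg and Cd81 among them. The Tg ratio is read as a lower bound, here and below only in the sense that background UMIs in the lower library make a ratio too small. The counting interval still applies, so such a ratio can also be smaller than its point value. In the day 5 library without cytokine, 1 of 6003 thinned cells had a Tg UMI, a share at background. Background here means a point value below the share of thinned naive cells with Lyz2, a myeloid gene seen in no thinned cell of the other libraries.

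From day 3 to day 10, the median differences were −4.46 for Cd81 (−5.03 to −3.40), −4.06 for Tg (−4.74 to −3.48) and −4.00 for Cd200 (−5.15 to −3.30). All 3 were lower in 6 of 6 pairs and were called, as were 7.98% of 5977 genes (0.87% were called higher), with nothing read from it for the same reason. Where Tg had made most of its fall by day 5, the other genes went on: from day 5 to day 10, Cd200 differed by −2.93 (lower in 6 of 6 pairs), Cd81 by −2.36 (6 of 6) and Tg by −0.79 (5 of 6). None of the 3 reached 20 CPM in either arm of that step, so no call was made. These day steps share their day 3 or day 5 libraries and are set side by side only. The cycling markers Mki67 and Top2a summed to 922.8 to 1335 CPM on day 3, to 140.0 to 1615 on day 5 and to 15.0 to 793.5 on day 10. Neither was called between days 3 and 5 (median −0.29), against 2.22% lower and 0.829% higher over all genes. Both were called lower between days 3 and 10 (median −2.41), against 7.98% over all genes. The share of cells with a UMI of either marker, without thinning, was lower on day 5 than day 3 in 6 of 6 pairs. At 5 and then 50 IU/mL it went from 62.8% to 18.7% and 73.8% to 50.4% with IL-2. With IL-2v it went from 66.2% to 39.8% and 86.9% to 66.7%. With IL-15 it went from 55.7% to 21.1% and 58.2% to 24.6%. Without cytokine it went from 60.0% to 13.8%. Depth was not equalised for these shares. In cells with no UMI of either marker, the differences between days 10 and 3 were −4.53 for Cd81, −4.35 for Cd200 and −4.01 for Tg, larger in size than in all cells for Cd81 and Cd200 and slightly smaller for Tg.

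The rise from the naive library to the day 3 library without cytokine was one pair of libraries. It came to 128-fold for Tg (58.6 to 350), 8.42-fold for Cd81 (6.72 to 10.7) and 3.04-fold for Cd200 (2.59 to 3.57), where the Tg ratio is again a lower bound because the naive share of Tg cells was at background. All 3 were higher by more than 1 log2 unit, as were 11.1% of 6171 genes, and the naive level was part of how the genes were described at the outset. On day 5 without cytokine, Cd81 stood at 1.10 times its naive level (0.833 to 1.47), with overlapping intervals, and Tg was at background in both libraries. Cd200 stood at 1.91 times (1.62 to 2.25), above its naive level. Both Cd200 ratios to naive rest on a level with 42.3% of its UMIs in 30 cells.

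The Cd200 UMIs of naive cells were gathered in few cells, a split chosen after the values were seen. Of 4777 naive cells, 146 had a Cd200 UMI, and the 30 with 2 or more held 42.3% of the 201 UMIs, up to 14 in 1 cell. Cd8b1, a chain of the CD8 co-receptor, was seen in 43.3% of those 30 cells (Clopper-Pearson 95% interval 25.5 to 62.6) and in 83.6% of cells without a Cd200 UMI (82.5 to 84.7). Cd4 was seen in 2 of the 30 cells, 6.67% (0.818 to 22.1), which overlaps the 1.25% (0.952 to 1.62) of cells without Cd200, and in 8.90% of all 146 (4.83 to 14.7), which does not. Ikzf2, which encodes Helios, was seen in 46.7% of the 30 cells (28.3 to 65.7) and in 14.4% of the cells without Cd200 (13.4 to 15.4). Foxp3 was seen in 0 of the 30, which allows up to 11.6%, and in 2 of all 146, 1.37% (0.166 to 4.86). In cells without Cd200 the Foxp3 share was 0.108% (0.0351 to 0.252), with overlapping intervals. Cxcr5, a chemokine receptor of follicular helper T cells, was seen in 3 of the 30 cells, 10.0% (2.11 to 26.5), against 1.36% (1.05 to 1.74) of cells without Cd200, with separate intervals. In all 146 it was seen in 6, 4.11% (1.52 to 8.73), which overlaps the share of cells without Cd200. Cd3d was seen in 96.7% of the 30 cells and 93.4% of those without Cd200, and their median depths were 3768 and 3797 UMIs. The part of these cells in the naive level was not tested.

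The cytokines were set against each other in 6 pairs of libraries that shared day and dose, and Cd200 was the gene of the 3 that was called. Cd200 was higher with IL-15 than with IL-2 in 6 of 6 pairs, by a median of 1.44 log2 units (0.71 to 1.77), a call that 0.49% of 5718 genes shared in that direction. By day, the unlogged ratio at 5 IU/mL was 1.66 (1.51 to 1.81) on day 3, 2.38 (2.09 to 2.73) on day 5 and 5.23 (3.53 to 7.96) on day 10. At 50 IU/mL it was 1.67 (1.5 to 1.86), 3.52 (2.81 to 4.45) and 25.4 (8.41 to 125). The last rests on 3 UMIs in the IL-2 library, a level at background, and is read as a lower bound. The log2 differences were smallest on day 3, below 1 in both pairs, and without the day 10 pairs the median was 0.96, under the size needed for a call. Cd200 was lower with IL-2v than with IL-15 in 6 of 6 pairs, with a median of −1.36 (−1.85 to −0.37), a call made for 0.585% of 5810 genes. In cells that had no UMI of Mki67 or Top2a, that median was −0.96, which ends the call, and a pseudocount of 10 CPM ends both calls (0.60 and −0.57). The IL-2v and IL-2 pairs were split for Cd200, 3 higher and 3 lower, with a median of 0.13 (−0.66 to 0.39).

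Cd81 and Tg had no such order of cytokines and were not called. Among the genes tested, 1.04% were called higher and 0.274% lower with IL-2v than with IL-2, and 1.7% were called lower with IL-15 than with IL-2. Cd81 was lower with IL-2v than with IL-2 in 5 of 6 pairs (median −0.43, −1.28 to 0.63) and lower with IL-15 than with IL-2 in 5 of 6 (median −0.55, −2.40 to 1.05). In each case the remaining pair was a 5 IU/mL pair, on day 5 for IL-2v and on day 10 for IL-15. On the log2 scale, the widest Cd81 difference was on day 5 at 50 IU/mL, where the IL-2 library was 6.09-fold above the IL-15 library (4.95 to 7.53) and differed from the IL-2v library by less, with a log2 difference of −0.93 for IL-2v minus IL-2. Cd81 was higher with IL-2v than with IL-15 in 4 of 6 pairs (median 0.18, −1.39 to 1.47). In that comparison Cd81 averaged 15.5 and 13.4 CPM, under 20 in both arms, so it was not tested. With 5 IU/mL IL-2v on day 10 it was 10.2-fold lower (4.61 to 26.7). That ratio is a lower bound, since the IL-2v library had 7 UMIs and was at background. Tg was lower with IL-15 than with IL-2 in 5 of 6 pairs (median −0.31, −0.81 to 0.10) and lower with IL-2v than with IL-2 in 5 of 6 (median −0.21, −0.75 to 0.53). Tg did not reach 20 CPM on average in these arms, so it was not among the genes tested.

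**Figure D2:**
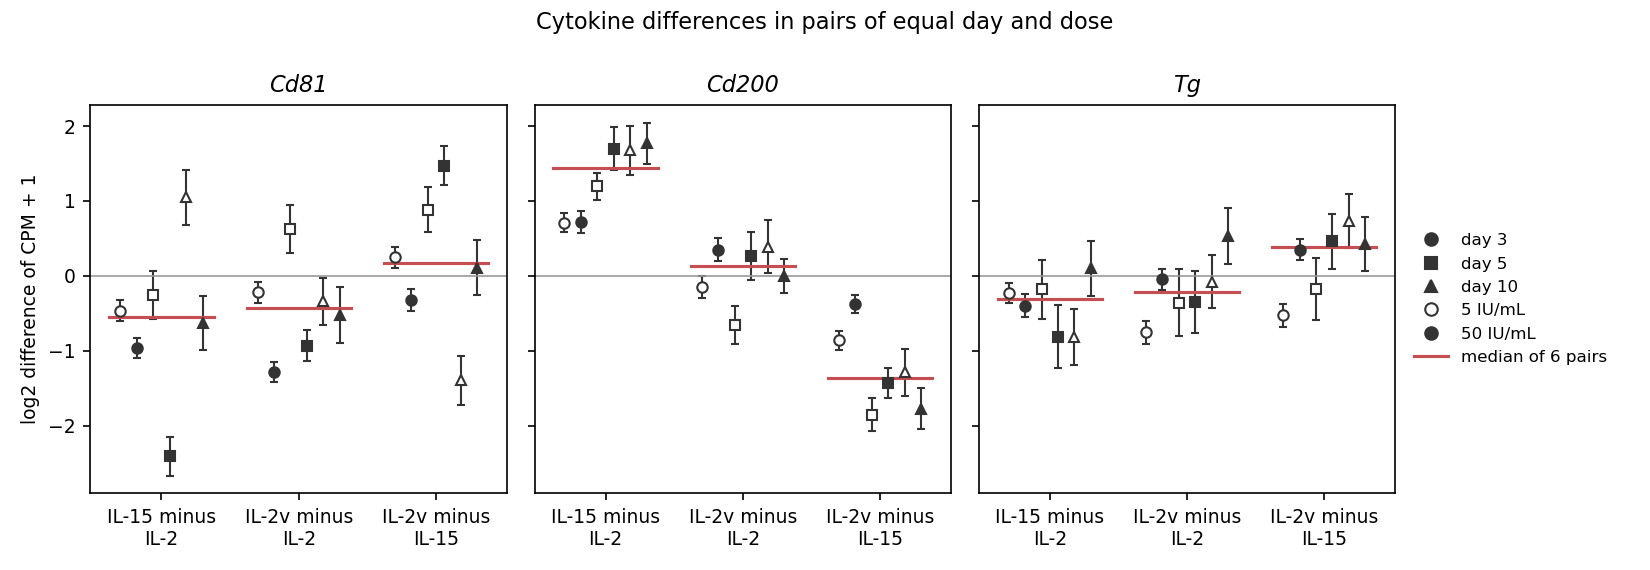
Log2 differences of CPM + 1 between cytokines for each gene; each point is 1 pair of libraries of equal day and dose with its 95% counting interval, shapes are days, open points are 5 IU/mL, and the red line is the median of 6 pairs. For Cd200 all 6 points of IL-15 minus IL-2 lie above 0 and all 6 of IL-2v minus IL-15 below 0, while the points of Cd81 and Tg fall on both sides of 0 in every column.

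The dose of cytokine went with opposite differences of Cd81 and Cd200 in the IL-2 libraries. Each 50 IU/mL library of IL-2 and IL-15 carries a treatment label that conflicts with its title, so every dose pair of these cytokines holds such a library. Cd81 was higher at 50 than at 5 IU/mL of IL-2 on all 3 days, by 1.56-fold (1.43 to 1.71) on day 3, 7.04-fold (5.59 to 8.95) on day 5 and 3.55-fold (1.99 to 6.66) on day 10, the last as a lower bound since the 5 IU/mL library of that day was at background for Cd81. Cd200 was lower at 50 IU/mL of IL-2 on all 3 days, by 1.29-fold (1.15 to 1.45), 1.71-fold (1.34 to 2.19) and 9.77-fold (3.06 to 49.9). The last is set against those 3 UMIs at background and is also a lower bound. The median log2 difference of Cd81 was 0.92, the value of that day 10 pair, and misses the size of 1 needed for a call that 4.29% of 5879 genes got. It reached 1.12 with TMM scaling and was 0.77 without day 5. For Cd200 the median was −0.70, and the gene did not reach 20 CPM in either arm. In the IL-15 libraries, Cd200 was lower at 50 IU/mL on each of the 3 days (median −0.35, −0.80 to −0.20) and Cd81 was mixed (median 0.13, −0.76 to 0.43). With IL-2v, Tg was higher at 50 IU/mL on all 3 days (median 0.55, 0.14 to 0.99), Cd81 in 2 of 3 (median 0.74) and Cd200 in 2 of 3 (median 0.13).

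Each cytokine library of days 3 and 5 was also set against activated cells of the same day without cytokine. On day 3 none of the 18 differences reached 1 log2 unit in size; the largest was 0.94 for Cd200 with 5 IU/mL IL-15 (1.94-fold, 1.77 to 2.13). Among all genes, the share higher by 1 log2 unit or more was 0.142%, 6.45%, 0.211%, 7.83%, 0.142% and 0.819% at 5 and then 50 IU/mL, in the order IL-2, then IL-2v, then IL-15. The share lower by as much was 0.106%, 2.74%, 0.0704%, 1.75%, 0.285% and 0.261%. On day 5, Cd81 was 6.50-fold higher with 50 IU/mL IL-2 than without cytokine (5.30 to 8.02), in a pair where 16.5% of 6022 genes were higher by 1 log2 unit or more. With 50 IU/mL IL-2v it was 3.32-fold higher (2.71 to 4.09), below the level needed for a call, and with 5 IU/mL IL-2 the ratio was 0.923 (0.700 to 1.21). Cd200 on day 5 lay below the library without cytokine with IL-2 and IL-2v and above it with IL-15. Its log2 difference was −1.22 with 50 IU/mL IL-2, where 7.54% of genes were lower by 1 or more, and −1.18 with 5 IU/mL IL-2v, where 2.62% of 5869 were. With IL-15 it was 1.63-fold higher at 5 IU/mL (1.46 to 1.81) and 1.41-fold higher at 50 IU/mL (1.26 to 1.58). Tg was higher in all 6 cytokine libraries of day 5 than in the one without, from 3.04-fold (1.43 to 6.87) with 5 IU/mL IL-2v to 11.2-fold (5.78 to 23.9) with 50 IU/mL IL-2, at levels too low for a call and, since the library without cytokine was at background for Tg, as lower bounds.

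Sla, the gene inside Tg, did not share the fall of its host between days 3 and 5 in the 6 pairs with cytokine. It stood at 84.9 CPM in naive cells, between 69.3 and 126.5 CPM on day 3, between 75.8 and 111.1 on day 5 and between 9.61 and 91.5 on day 10. The ranges of days 3 and 5 overlapped. In the pairs with cytokine the median difference was −0.08 (lower in 4 of 6 pairs, −0.56 to 0.31), where Tg differed by −3.36. Without cytokine, Sla was lower on day 5, at 76.6 against 123.9 CPM. That log2 difference was −0.69, larger in size than in any pair with cytokine, where Tg differed by −4.90. Between days 3 and 10 Sla was lower in 6 of 6 pairs with a median of −1.09. It was called lower there, as Tg was and as were 7.98% of 5977 genes. The Pearson r of Tg and Sla over the 21 libraries was 0.45. Of the 4 neighbours of Tg tested between days 3 and 5, Sla included, Tmem71 was called higher (1.26) and none lower, against 0.829% and 2.22% over all genes, with a list median of 0.55 against −0.10.

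**Figure D3:**
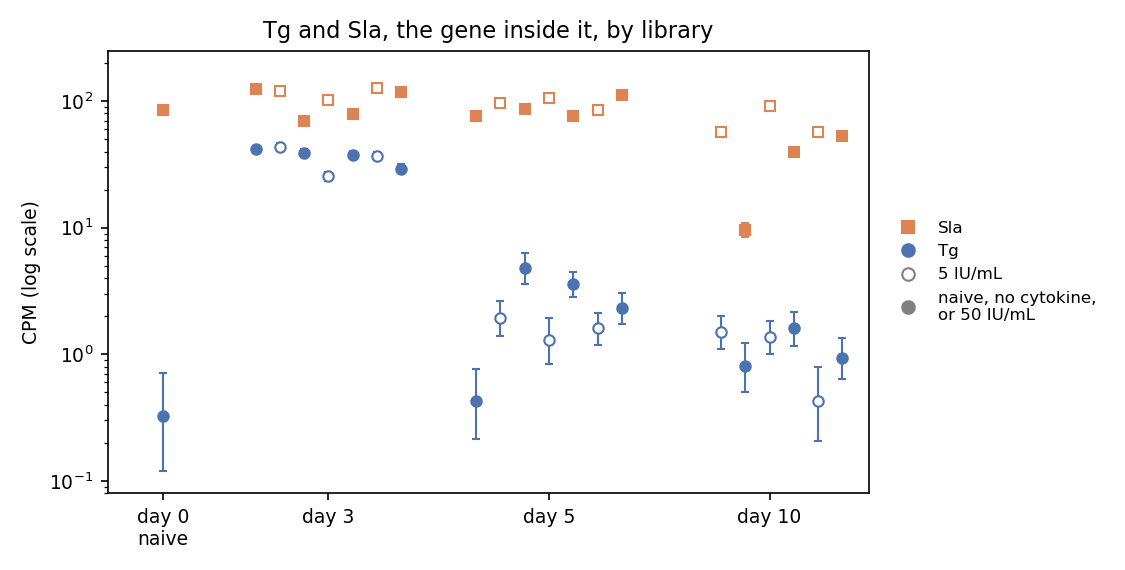
CPM (log axis) of Tg and of Sla, which lies within it on the opposite strand, in each of the 21 libraries by day; each point is 1 library with its exact Poisson 95% interval, and open points are 5 IU/mL. Tg drops from 25.5 to 43.6 CPM on day 3 to at most 4.82 on day 5, while Sla stays between 69.3 and 126.5 CPM on both days.

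The share of cells with a UMI was taken after thinning each cell to 2000 UMIs, which left out 57 to 393 cells per library. On day 3, the thinned share was 5.40% to 12.4% for Cd81 (median 6.41%), 5.65% to 12.1% for Cd200 (median 7.40%) and 3.85% to 7.18% for Tg (median 6.23%). Without thinning, the medians were 15.2%, 14.8% and 13.7%, and the highest share was 25.0%, for Cd81 with 50 IU/mL IL-2. On day 5, Cd81 was seen in 0.665% to 5.74% of thinned cells, Cd200 in 1.54% to 6.57% and Tg in 0.0167% to 0.945%. On day 10 the ranges were 0.0653% to 0.538%, 0.0404% to 1.13% and 0.0371% to 0.327%. Genes that CD8 T cells should lack were taken as a guide to background. Lyz2 was seen in 0.0895% of thinned naive cells and in none of any other library. Ms4a1 was seen in none, in libraries with median depths of 3016 to 5065 UMIs. Whether the naive Lyz2 UMIs were free RNA or came from myeloid cells was not tested. The level depends on the gene: Cd79b, from the B cell list, was seen in 5.68% of unthinned naive cells without a Cd200 UMI. The naive Lyz2 share was taken as the level for all libraries, although Lyz2 was at 0 in the thinned cells of the others. The lowest day 10 shares of all 3 genes and the day 5 share of Tg without cytokine (0.0167%) lay below that level as point values. So did the naive share of Tg (0.0447%, 0.00542 to 0.161), whose interval also reached above it. These shares are read as background. On day 10 these were the 5 IU/mL libraries with IL-2 and IL-2v for Cd81, those at 50 IU/mL for Cd200, and the one with 5 IU/mL IL-15 for Tg.

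Most positive cells held a single UMI. On day 3, without thinning, 20.1% to 28.9% of cells with Tg had 2 or more of its UMIs, at most 9 in 1 cell, and the ranges were 15.7% to 25.4% for Cd81 and 11% to 20.2% for Cd200. UMIs per positive cell ran from 1.28 to 1.43 for Tg, 1.20 to 1.34 for Cd81 and 1.12 to 1.26 for Cd200 on that day. By day 10, the same number for Tg was 1 to 1.05. For Cd81 it was 1 to 1.27 on day 10, and the highest value, with 50 IU/mL IL-2, lay within its day 3 range.

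Within day 3, cells were split by a UMI of Mki67 or Top2a, both made in dividing cells. Cd200 was seen less often in cycling cells in 5 of 7 libraries with separate intervals, for example in 5.36% (4.45 to 6.39) against 8.13% (6.99 to 9.39) without cytokine. With 5 IU/mL IL-15 the shares were 10.3% (9.05 to 11.7) and 13.7% (12.4 to 15.1). The 2 libraries whose intervals overlapped were those with IL-2 and IL-2v at 50 IU/mL. Cd81 intervals overlapped in 7 of 7 libraries, with shares of 5.42% to 11.7% in cycling and 4.98% to 13.6% in other cells. Tg was apart in 1 of 7, with 5 IU/mL IL-2, at 6.11% (5.14 to 7.20) of cycling and 8.53% (7.25 to 9.94) of other cells.

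**Figure D4:**
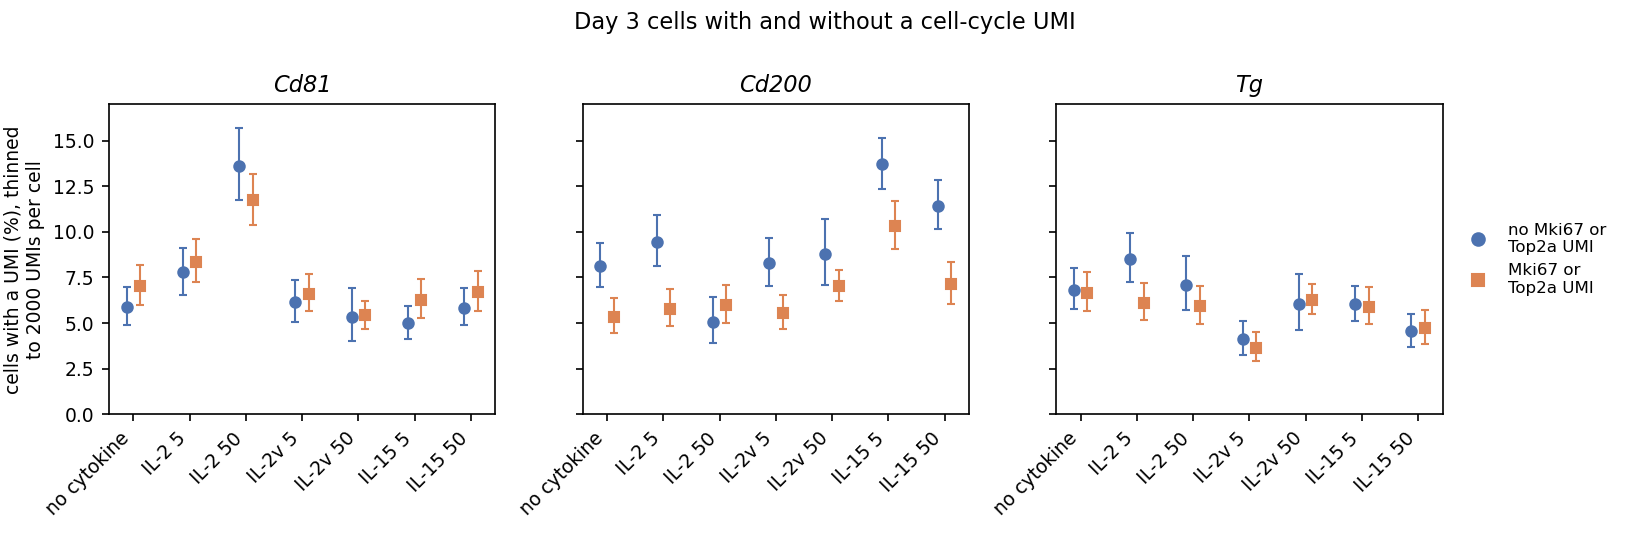
Percent of day 3 cells with a UMI of each gene after thinning to 2000 UMIs, in cells with (squares) and without (circles) a UMI of Mki67 or Top2a, for the 7 day 3 libraries (numbers after a cytokine are IU/mL); bars are Clopper-Pearson 95% intervals. Cd200 is lower in the cycling cells with separate intervals in 5 libraries, Tg in 1 and Cd81 in none.

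Pairs of the 3 genes met in the same day 3 cells at about the rate their single shares give, or somewhat above. Cd81 and Tg were seen together in 0.378% to 0.986% of thinned cells, 1.20 to 1.73 times the product of their shares (median 1.30), and the interval lay above that product in 2 of 7 libraries. For Cd200 and Tg the ratio was 0.748 to 1.73 (median 1.34), again apart in 2 of 7. Cd81 and Cd200 gave 0.937 to 1.09 (median 1.06) and were apart in none of the 7.

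Day 3 cells with and without a UMI of each gene were also compared over all genes in each of the 7 libraries, at the same 2000 UMIs per cell; the comparison was added, and the genes below the call picked, after the data were seen. Batf3, which encodes a basic leucine zipper factor of the AP-1 family, was higher in cells with Tg by a median of 1.15 log2 units (7 of 7 libraries, 0.22 to 1.97), the one call, 0.0172%, among 5826 genes. No gene was called for Cd81 (0.0% of 5799 genes) or for Cd200 (0.0% of 5784). Of genes that missed the call, each with 1 sign in 7 of 7 libraries, the median difference in cells with Tg was 0.82 for Tnfrsf4, the co-stimulatory receptor OX40, 0.93 for Mt2, a metallothionein, 0.68 for Nrn1, which encodes neuritin, and −0.90 for Ly6c2, a surface marker of memory and effector cells. In cells with Cd81 the values were 0.65 for Tnfrsf4, 0.66 for Mt2 and −0.87 for Ly6c2. In cells with Cd200 they were 0.66 for Nrn1, 0.64 for Slamf1, a co-receptor of the SLAM family, and −0.95 for E2f8, a transcription factor of the E2F family.

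Of 20 tetraspanin genes measured, Tspan3 (1.19) and Tspan31 (1.73) were higher by 1 log2 unit or more on day 3 without cytokine than in naive cells, 2 of 9 tested against 11.1% over all genes, and the list median was 0.00 against −0.11. In all, 10 were tested between days 3 and 5, where Tspan32 was called lower (−1.27) and none higher, against 2.22% lower and 0.829% higher over all genes, with a list median of 0.01 against −0.10. Between days 3 and 10, Tspan3 was called lower (−1.70) among 9 tested, against 7.98% over all genes, with a list median of −0.45 against −0.17. Tspan2, picked after its values were seen and too low to be tested by day, had 0.108 CPM in naive cells, 19.6 on day 3 without cytokine, a median of 8.33 on day 5 and 0.930 on day 10. Cd53 and Cd37, tetraspanins of white blood cells, had medians of 420.5 and 157 CPM on day 3 and 386 and 217 on day 10. Among the genes of known CD81 partners, Ifitm1 and Ifitm3, interferon-induced membrane proteins of a family known to associate with CD81, were called higher on day 5 than day 3 (4.64 and 2.25), 2 calls among 8 tested against 0.829% over all genes. The list median was 0.41, against −0.10. Between days 3 and 10, none of the 8 was called higher or lower, against 0.87% and 7.98% over all genes. Ifitm1 reached 4950 CPM on day 10 with 50 IU/mL IL-2, where Cd81 was 1.91 CPM.

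The 3 CD200 receptor genes measured were low in these cells. Cd200r1 reached at most 5.07 CPM, on day 10 with 5 IU/mL IL-2, and had 2.38 CPM in naive cells, while Cd200r4 reached 9.30 and Cd200r3 0.866 CPM. Dok2, an adaptor that binds CD200R1, reached 193.4 CPM on day 10 with 5 IU/mL IL-2. Of 7 genes of the CD200 receptor pathway measured, 3 were tested and none was called between days 3 and 5 (list median 0.25, against −0.10 over all genes) or between days 3 and 10 (0.38, against −0.17). The shares called over all genes were 2.22% lower and 0.829% higher on the first step and 7.98% and 0.87% on the other. On the thyroid side, 5 of 15 genes of thyroid hormone synthesis were measured and each was below 1 CPM in every library. Of the 5 proteases that process thyroglobulin, Ctsl, the gene of cathepsin L, was called lower between days 3 and 10 (−1.37), the 1 call among 4 tested, against 7.98% over all genes, while Ctsd had a median of 169.5 CPM on day 3 and 272.0 on day 10.

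Some surface genes of T cell activation were also called lower after day 3. Of 8 such genes tested, 7 were higher by 1 log2 unit or more on day 3 without cytokine than in naive cells, against 11.1% over all genes, with a list median of 2.74 against −0.11 over all genes. Between days 3 and 5, Il2ra, the high-affinity chain of the IL-2 receptor (−1.30), Tnfrsf4 (−2.10) and Lag3, an inhibitory receptor (−1.44), were called lower, 3 of 8 against 2.22% over all genes, with a list median of −0.96 against −0.10. Between days 3 and 10, Il2ra, Icos, Tnfrsf4, Ctla4 and Lag3 were called lower, 5 of 8 against 7.98% over all genes, with a list median of −2.23 against −0.17. Tnfrsf4 differed by −4.07 on that step and Lag3 by −3.63. Tnfrsf9, the co-stimulatory receptor 4-1BB, was not called and reached 1112 CPM on day 10 with 50 IU/mL IL-2.

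The genes most alike to each were ranked by Pearson r of log2(CPM + 1) over the 21 libraries, among 7271 genes with at least 20 CPM in a library. For Cd81 these were Hook1 (0.96), Ankrd46 (0.94), Strbp (0.94), Lrrc8d (0.93) and Ppp6r1 (0.93). For Cd200 they were Ctsl (0.92), Nvl (0.91), Matk (0.90), Slc25a23 (0.90) and Tspan3 (0.90), and for Tg they were Rnaseh2a (0.93), Snrnp25 (0.93), Mrpl54 (0.92), Dap3 (0.91) and Nup210 (0.91). Among the 3 genes, r was 0.86 for Cd81 and Tg, 0.78 for Cd81 and Cd200 and 0.68 for Cd200 and Tg. These values are descriptions of 21 libraries that fall into days, and the libraries share the culture and their total as the scale. None of the genes most alike had as deep a fall: Matk, the gene of a kinase that restrains Src-family kinases, went from a median of 92.3 CPM on day 3 to 9.72 on day 10, and Hook1 from 19.2 to 6.83.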

How the data were processed

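The authors deposited raw single-cell UMI counts, 1 table per library, in which every value was whole. Cell Ranger, Seurat (versions 3.0.2 and 4.0.1) and the build mm10 are named in the submitters' processing notes, without their roles. A cell needed 1000 UMIs, 500 genes and no more than 10% mitochondrial UMIs, which removed 2 of 106458; no doublet caller was run. Counts were summed per library and scaled to CPM. Differences were taken in log2(CPM + 1), with genes tested from a mean of 20 CPM in either arm and called at 1 log2 unit or more with the same sign in all pairs. Poisson and Clopper-Pearson intervals are 95% and cover counting error only. For shares, cells were thinned at random to 2000 UMIs. Lists named were tetraspanins, CD81 partners, CD200 receptor pathway, thyroid hormone synthesis, thyroglobulin proteases, Tg neighbours, activation surface genes and cell type markers; genes were named from them and as the 5 most alike to each of the 3 genes. The 3 genes and the lists were chosen with earlier results of these data known. The call at 1 log2 unit was tried on 1 simulated pair of libraries, with changes set larger than that and in genes of 20 CPM or more. Changes near 1 log2 unit, changes in lower genes and the rule of the same sign in all pairs were not simulated. The thinning was checked on Cd81 in 1 of the measured libraries, against the share calculated for random sampling. Python 3.11.15, numpy 2.4.6, pandas 2.3.3, scipy 1.17.1, matplotlib 3.10.9 and, for TMM factors, edgeR 4.0.16 in R 4.3.3 were used. Alternatives kept all barcodes, left out cells above 2 times the median UMIs, cells with markers of other lineages, cells with cycling markers or the pairs of each cytokine, and used TMM scaling, other totals, means of single cells, a pseudocount of 10, no CPM filter and other thinning.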

Additional observations from a re-analysis of the deposited data

How the results depend on the processing

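With 1 library per condition there is no spread between replicates, so these results are measurements of single libraries. All 72 alternative values of the day 5 and day 10 differences of Cd81, Cd200 and Tg stayed below −1, and all 24 of the rise from naive to day 3 stayed above 1. A log2 difference or a share of cells counted as moved where it left bounds set by the median of the counting intervals of its pairs or libraries. A count of genes was judged by a fixed fold range instead. By these rules, 104 of 145 alternative values stayed inside. The cause of the moves was not tested, apart from the pseudocount, which shrinks all differences by construction. With a pseudocount of 10, day 5 minus day 3 was −1.52 for Cd81, −1.07 for Cd200 and −1.77 for Tg; day 10 minus day 3 was −2.16, −2.18 and −2.11; day 3 minus naive was 1.73, 1.04 and 2.32; Cd200 was 0.60 for IL-15 minus IL-2 and −0.57 for IL-2v minus IL-15, which ends both calls; Cd81 was 0.54 for the IL-2 dose; and 46 genes were lower on day 5. Without the IL-2 pairs, day 10 minus day 3 was −4.08 for Cd81 and −3.74 for Cd200. Without the IL-2v pairs, day 5 minus day 3 was −2.68 for Cd81 and −1.15 for Cd200. Without the IL-15 pairs, Cd81 was −1.64 on day 5 and −4.77 on day 10, and Cd200 −4.53 on day 10. Without the 6 libraries with conflicting treatment labels, an alternative chosen after seeing the data, Tg was −3.70 on day 5. TMM scaling gave −4.18 for Cd81 on day 10. The mean of single-cell CPM gave 2.32 for Cd81 from naive to day 3, and library totals with neither ribosomal protein nor mitochondrial genes in them gave 5.47 for Tg there. In cells that had no UMI of Mki67 or Top2a, Cd200 was −4.35 on day 10, 1.89 from naive to day 3 and −0.96 for IL-2v minus IL-15. The cytokine and dose differences were recomputed as alternatives chosen after seeing the data: Cd200 for IL-15 minus IL-2 was 1.69 without day 3 and 0.96 without day 10, Cd200 for IL-2v minus IL-15 was −1.07 without day 5, and Cd81 for the IL-2 dose was 1.75 without day 3, 1.60 without day 10 and 0.77, under the size for a call, without day 5; TMM scaling, those other totals, means of single cells and leaving out cells above 2 times the median UMIs put it at 1.12, and cells with no cycling marker at 1.14, each of these scalings and cell choices past 1. TMM scaling moved the median of all genes from −0.17 to 0.09 on day 10 and from −0.10 to 0.01 on day 5; lower calls went from 477 to 282 beside 52 and 98 higher on day 10, and from 131 to 89 beside 49 and 67 higher on day 5. With no filter on CPM, 264 genes were lower on day 5 and 1065 on day 10. In the IL-2v minus IL-15 comparison, 34 genes were lower and 144 higher as reported, 53 and 87 with TMM scaling, and 72 and 124 without ribosomal protein and mitochondrial genes in the totals; for IL-15 minus IL-2, the last scaling gave 102 lower and 52 higher, against 97 and 28. The median day 3 shares of cells with Cd81, Cd200 and Tg were 3.07%, 4.07% and 3.35% with thinning to 1000 UMIs. No fit with a replicate block could be made, since each condition had 1 library and the labels give no replicate numbers; libraries were paired by condition only. On day 10, Cd200 rests on 3 UMIs in each of 2 libraries.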
